A study of Mus musculus with 93 samples.

Results

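Nop58 and 8 further proteins of small nucleolar ribonucleoproteins (snoRNPs) and of the nucleolus around them were followed through single cells of the adult mouse lung. The members were taken by gene symbol (Nop58, Nop56, Fbl, Ncl, Npm1, Dkc1, Nhp2, Nop10 and Gar1). All 9 had values in both deposited tables, out of 23846 gene rows, of which 21284 had a single symbol and numeric values. Nop58 was selected on its high ratio of mean FPKM between the groups and the others for their roles beside it, so the ratio of Nop58 is given here as a description. The questions added were whether its partners showed the same ratio and whether the snoRNAs in its introns went with it.

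The cells came from C57BL/6 mice carrying Tbx4cre and RosaTm, alleles shared by both groups. Tbx4 is a T-box factor gene of the developing lung mesenchyme, and Cre made from it switches on a reporter that daughter cells keep. The Tbx4 lineage+ group holds 54 libraries with the reporter on and the Tbx4 lineage- group 39 libraries without it, each from 1 well of a Fluidigm C1 chip. The study design calls both groups mesenchymal, while the protocol writes the shared sort gate as positive for epcam and negative for CD31, CD45 and the dead-cell dye 7AAD. All lineage+ wells carry the name prefix 7m-Lung and all lineage- wells the prefix Tbx4-2, which the labels do not explain. Both groups are labelled adult with no age in numbers, and no label names an animal or a chip. So each group counts as 1 sample. The chip, the animal, its age and the preparation cannot be told apart from lineage, no difference below has a replicate check, and intervals cover counting error over cells alone.

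Profiles of lineage+ wells 2 and 15 were close to identical (Pearson r of 0.996 on the log2 scale), as were those of wells 9 and 23 (0.997), while no other of 4278 pairs passed 0.596. Each such pair was averaged and counted as 1 cell. Cells with at least 1000 genes at 1 FPKM (fragments per kilobase of transcript and per 1000000 mapped reads) or more were kept, 50 lineage+ and 34 lineage-. They had a median of 2411.5 detected genes in lineage+ and 1811 in lineage-, and roughly estimated median depths of 6665000 and 7480000 reads. Tbx4, Ptprc and Pdgfra had no values, and Tbx4 itself could not serve to check the label. Clusters built without the snoRNP genes put 40 lineage+ cells in fibroblast-like, 9 in mesothelial-like and 1 in immune-like clusters. In lineage- 18 cells were epithelial-like, 12 immune-like, 3 fibroblast-like and 1 mesothelial-like. Immune markers summed to a median of 0 FPKM in lineage+ (highest cell 499) and 3150 FPKM in lineage- cells (lowest 0.17, highest 48300), with 6 and 11 of 12 markers detected in some cell. The alveolar fibroblast markers summed to a median of 6810 FPKM in lineage+ (19.0 to 27700) and 78.8 FPKM in lineage- cells (0.0889 to 13200), with all 11 and 9 of 11 detected. Alveolar type 2 markers summed to a median of 0.213 FPKM in lineage+ (0 to 195) against 439 FPKM in lineage- cells (0.197 to 521000), with 4 and 9 of 9 detected. A lineage- well, cell 23, is named as debris and was kept, with 1447 detected genes and Nop58 listed at 0. The part of these cell types in the values below was not tested beyond the comparisons by class.

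As background, snoRNPs are RNA-protein particles that modify ribosomal and spliceosomal RNA in the nucleolus and Cajal bodies. Box C/D particles add methyl groups to ribose: Fbl (fibrillarin) is the methyltransferase, while Nop56 and Nop58 are paralogous scaffold proteins that hold it on the guide RNA, together with Snu13, listed in these tables under its older symbol Nhp2l1. Box H/ACA particles turn uridine into pseudouridine through Dkc1 (dyskerin), the pseudouridine synthase, with Nhp2, Nop10 and Gar1, which also belong to telomerase. Ncl (nucleolin) and Npm1 (nucleophosmin) are abundant nucleolar proteins of ribosome assembly. In mammals most snoRNAs are cut from introns of host genes, and many of those hosts encode proteins of the ribosome and nucleolus.

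Nop58 is such a host. It lies at 59685006 to 59711510 on chromosome 1 in the files, on the plus strand, and the files' coordinates match GRCm38. GENCODE M21 places 4 snoRNAs inside it, in introns 2, 3, 8 and 9 of its transcript with 15 exons. Their sequences from GENCODE are shown because they lie within the Nop58 primary transcript. Capitals mark the TGATG core of box C near the 5′ end and the CTGA of box D near the 3′ end, the motifs to which the Nop58 particle binds. Of 1507 GENCODE snoRNA transcripts 354 (23.5%) hold both motifs on the transcript's own strand, starting within 20 bases of the ends.
Snord70 (chr1:59691934-59692020, plus strand, intron 2): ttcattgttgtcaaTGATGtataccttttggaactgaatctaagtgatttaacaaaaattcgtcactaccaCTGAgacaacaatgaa
Gm26293 (chr1:59692509-59692592, plus strand, intron 3): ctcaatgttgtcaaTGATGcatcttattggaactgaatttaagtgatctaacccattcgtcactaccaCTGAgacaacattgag
Gm26287 (chr1:59704258-59704338, plus strand, intron 8): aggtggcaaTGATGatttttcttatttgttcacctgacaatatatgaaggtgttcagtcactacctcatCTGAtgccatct
Snord11 (chr1:59704790-59704873, plus strand, intron 9): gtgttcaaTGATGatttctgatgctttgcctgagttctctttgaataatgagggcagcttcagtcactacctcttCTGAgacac
Gm26293 and Snord70 are identical at 73 of 87 aligned positions (83.9%), and Gm26287 and Snord11 at 60 of 90 (66.7%). Snord70 and Snord11 have rows in the tables, over shorter intervals of 53 and 63 bases. Gm26293 and Gm26287 are not analysed here.

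Nop58 was detected, at 1 FPKM or more, in 35 of 50 lineage+ cells (70%, exact Clopper-Pearson 95% interval 55.4 to 82.1%) against 6 of 34 lineage- cells (17.6%, 6.76 to 34.5%). Lineage+ cells spanned 0 to 645.2 FPKM with a median of 7.55 FPKM, and lineage- cells 0 to 11.5 FPKM with a median of 0. The groups overlap at the low end, but 24 of 50 lineage+ cells stood above the highest lineage- cell. The mean was 67.8 FPKM in lineage+ against 0.887 FPKM in lineage- cells, which gives a log2 ratio of 5.19 after adding 1 FPKM to both means. That addition weighs on the ratio because the lineage- mean lies below 1 FPKM: it was 6.10 with 0.1 FPKM added and 2.84 with 10 FPKM added.

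The spread of Nop58 within lineage+ cells was wide. Nop58 was listed at 0 in 11 of the 50 cells, between 0 and 1 FPKM in 4, from 1 to below 10 FPKM in 11, from 10 to below 100 FPKM in 14, and at 100 FPKM or more in 10. The 10 highest were lineage+ cell 49 at 645.2 FPKM, cell 5 at 477 FPKM, cell 27 at 329.6 FPKM, cell 25 at 316.8 FPKM, cell 51 at 282.9 FPKM, cell 40 at 275.4 FPKM, cell 37 at 173.5 FPKM, cell 41 at 154.7 FPKM, cell 33 at 114.5 FPKM and cell 16 at 104.7 FPKM. The top 5 cells carried 60.5% of the lineage+ sum. With the difference of mean log2 values in place of the ratio of means, which gives such cells less weight, the value was 3.06.

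All 8 lineage- cells with any Nop58 value were low. They were lineage- cell 19 at 11.5 FPKM, cell 25 at 8.33 FPKM, cell 15 at 4.56 FPKM, cell 14 at 2.28 FPKM, cell 24 at 1.85 FPKM, cell 31 at 1.17 FPKM, cell 8 at 0.373 FPKM and cell 10 at 0.0669 FPKM. The remaining 26 were listed at 0. An exact 0 in these tables need not mean absent RNA, since the housekeeping gene Gapdh was also listed at 0 in 4 of 50 lineage+ against 2 of 34 lineage- cells. On a Nop58 mRNA of 1713 bases, 1 FPKM stood for an estimated median of 11.4 reads in lineage+ and 12.8 reads in lineage- cells. It stood for under 1 read in 0 lineage+ and 4 lineage- cells. The transcript with 15 exons is 9507 bases long, and on that length 1 FPKM stands for more reads in every cell. Where the estimate reached 2000000 reads, in 50 and 28 cells, the log2 ratio was 5.37 and detection 70% and 17.9%. Over cells with at least 2000 detected genes, 35 and 12, it was 5.22 with detection of 74.3% and 25%.

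**Figure D1:**
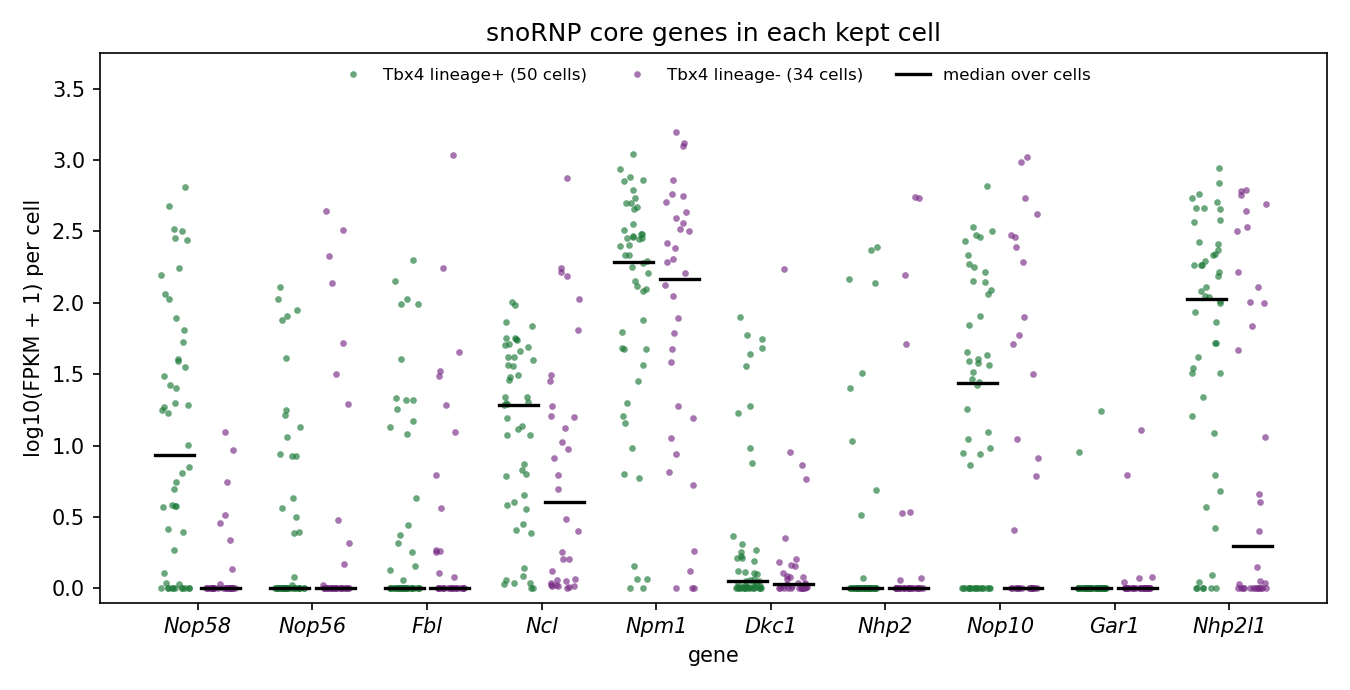
Log10 of FPKM plus 1 in each kept cell (points) for the 9 genes and Nhp2l1, with lineage+ cells (50) left of lineage- cells (34) and a bar at each median. Nop58 reaches 645.2 FPKM in lineage+ against 11.5 FPKM in lineage- cells, while for the other genes except Gar1 and Nhp2l1 the highest cell is a lineage- cell.

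By cell class, Nop58 was found in both main classes of the lineage+ group. It was detected in 28 of 40 lineage+ fibroblast-like cells (70%, 53.5 to 83.4%; range 0 to 645.2 FPKM, median 7.55 FPKM) and in 7 of 9 lineage+ mesothelial-like cells (77.8%, 40.0 to 97.2%; range 0 to 329.6 FPKM, median 15.8 FPKM). The single lineage+ immune-like cell was listed at 0. Among lineage- cells, Nop58 was detected in 1 of 18 epithelial-like cells (5.56%, 0.141 to 27.3%), which stood at 1.17 FPKM. It was detected in 3 of 12 immune-like cells (25%, 5.49 to 57.2%; highest 11.5 FPKM). The 3 lineage- fibroblast-like cells had 0, 0 and 8.33 FPKM and the 1 lineage- mesothelial-like cell had 4.56 FPKM. Over these 2 classes alone, 49 lineage+ and 4 lineage- cells, the log2 ratio was 4.05. The 4 lineage- cells lie within the range of lineage+ cells of the same classes.

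**Figure D2:**
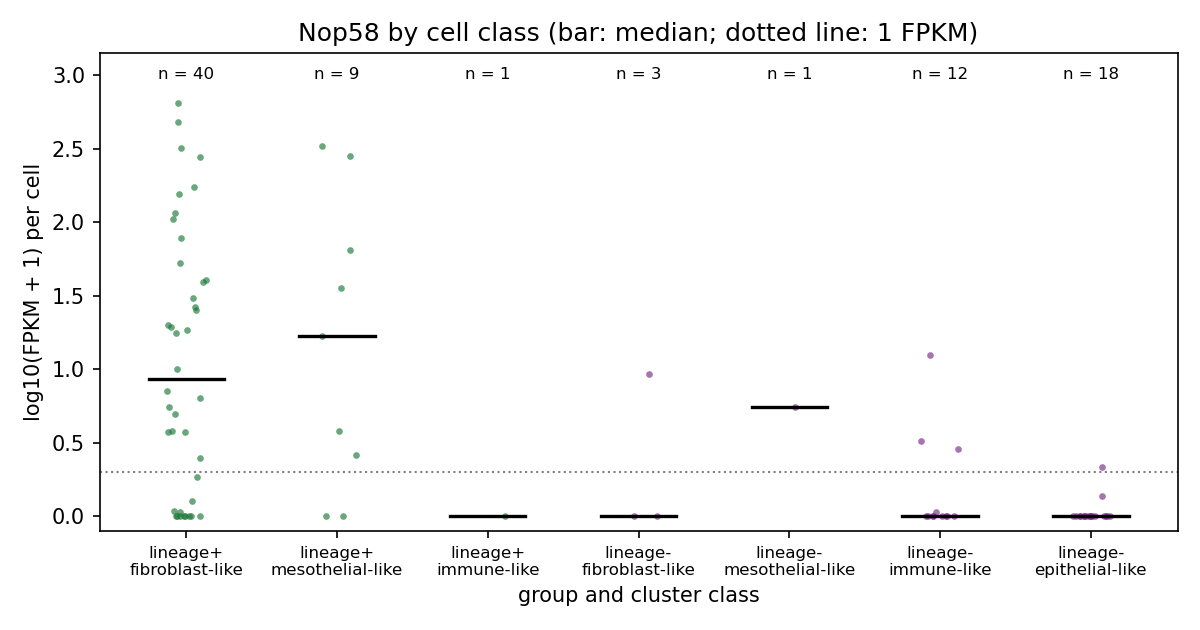
Log10 of Nop58 FPKM plus 1 per cell (points) by group and cluster class, lineage+ left, with a bar at each median and a dotted line at 1 FPKM. Detected cells are 28 of 40 and 7 of 9 in the fibroblast-like and mesothelial-like lineage+ classes, and 1 of 18 in the epithelial-like lineage- class.

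The partners did not share the ratio of Nop58. Counted at a 2-fold difference of means after adding 1 FPKM, 1 of the 9 members was higher in lineage+ cells, Nop58 itself, while 3 were lower (Nop56, Fbl and Nhp2) and 5 lay within 2-fold. Among 7587 genes detected in 10% or more of either group's cells, 29.7% were higher and 23.4% lower by the same rule. Gar1 is the 1 member that did not pass that filter on detection. The median log2 ratio of the 8 partners was -0.75, against 0.15 over all 7587 genes (quartiles -0.91 and 1.25). By detection the order was different: 7 of the 8 partners were detected in a larger share of lineage+ than lineage- cells, as were 67.6% of all 7587 genes.

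Of the other box C/D proteins, Nop56, the closest relative of Nop58, was detected in 18 of 50 lineage+ cells (36%, 22.9 to 50.8%) against 9 of 34 lineage- cells (26.5%, 12.9 to 44.4%). It spanned 0 to 128.2 FPKM in lineage+ and 0 to 441.5 FPKM in lineage- cells, with a median of 0 in both. Its mean was 12.1 FPKM in lineage+ against 35.9 FPKM in lineage- cells (log2 ratio -1.49). Lineage- cells 25, 15 and 20, at 441.5, 324.5 and 212.4 FPKM, lead the lineage- group and are fibroblast-like or mesothelial-like. The same cells had 8.33, 4.56 and 0 FPKM of Nop58. By class, 17 of 40 lineage+ fibroblast-like cells detected Nop56 (42.5%, 27.0 to 59.1%) and all 3 lineage- fibroblast-like cells did. Over fibroblast-like and mesothelial-like cells alone, 49 lineage+ and 4 lineage-, the log2 ratio was -4.23. With the difference of mean log2 values over all kept cells it stood at -0.05.

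Fbl was detected in 17 of 50 lineage+ cells (34%, 21.2 to 48.8%) against 9 of 34 lineage- cells (26.5%, 12.9 to 44.4%). It spanned 0 to 199.1 FPKM in lineage+ and 0 to 1076 FPKM in lineage- cells. Its mean was 16.1 FPKM in lineage+ against 41.1 FPKM in lineage- cells, and lineage- cell 38 at 1076 FPKM decided the direction. The log2 ratio was -1.30 with that cell and 0.32 once each group's highest cell was left out, and 1.73 over cells with at least 2000 genes. Nhp2l1, the fourth core protein and not among the 9, was detected in 42 of 50 lineage+ (84%) against 17 of 34 lineage- cells (50%), at means of 174 FPKM in lineage+ against 118 FPKM in lineage- cells (log2 ratio 0.56).

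Among the box H/ACA proteins, Dkc1 was detected in 12 of 50 lineage+ cells (24%, 13.1 to 38.2%) against 5 of 34 lineage- cells (14.7%, 4.95 to 31.1%). Most cells gave it a value between 0 and 1 FPKM, 28 in lineage+ and 21 in lineage-. The detected lineage+ cells had a median of 26.6 FPKM and reached 78.4 FPKM. The 5 detected lineage- cells had 170.9, 7.97, 6.31, 4.8 and 1.24 FPKM. The log2 ratio of means was 0.34, and once each group's highest cell was left out it was 2.03, because lineage- cell 19 at 170.9 FPKM made up most of the mean of 5.73 FPKM in lineage- cells. Dkc1 was also 2-fold or more higher in lineage+ over cells with at least 2000 genes (2.85) and where the estimate was 2000000 reads or more (2.21).

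Nhp2 was detected in 9 of 50 lineage+ cells (18%, 8.58 to 31.4%) against 6 of 34 lineage- cells (17.6%, 6.76 to 34.5%), at means of 16.7 FPKM in lineage+ against 38.3 FPKM in lineage- cells. Its log2 ratio was -1.15. Lineage- cells 25 and 19, at 547.8 and 542.6 FPKM, led the lineage- group, and without them the ratio turned to 1.21. The ends of Nhp2, Nop56 and Dkc1 overlap Rmnd5b, Idh3b and Mpp1 in the tables, and reads of the overlaps cannot be told apart here.

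Nop10 was detected in 33 of 50 lineage+ cells (66%, 51.2 to 78.8%) against 16 of 34 lineage- cells (47.1%, 29.8 to 64.9%), with a median of 26.2 FPKM in lineage+ and 0 in lineage- cells. Its means went the other way, 79.8 FPKM in lineage+ against 125 FPKM in lineage- cells (log2 ratio -0.64), and lineage- cell 25 at 1042 FPKM was the highest. The difference of mean log2 values of Nop10 was 0.90. Gar1 was near the limit of detection in both groups. The 2 lineage+ cells that detected Gar1 had 16.4 and 7.96 FPKM, and the 2 lineage- cells, 19 and 25, had 11.8 and 5.25 FPKM.

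The nucleolar proteins were the most widely detected of the 9. Npm1 was detected in 45 of 50 lineage+ cells (90%, 78.2 to 96.7%) against 29 of 34 lineage- cells (85.3%, 68.9 to 95%). It ranged up to 1106 FPKM around a median of 193 FPKM in lineage+ cells, and up to 1567 FPKM around a median of 146 FPKM in lineage- cells (log2 ratio of means -0.22). Npm1 is known for processed pseudogenes, which can share its reads, and no source used here says how the authors divided such reads. Ncl was detected in 42 of 50 lineage+ cells (84%, 70.9 to 92.8%) against 19 of 34 lineage- cells (55.9%, 37.9 to 72.8%). Its median was 18.4 FPKM in lineage+ against 3.03 FPKM in lineage- cells, but its means were 24.9 and 46.2 FPKM in the same order. Lineage- cell 17 at 751.7 FPKM, a cell with an estimated 180000 reads, was the highest. With each group's highest cell left out the log2 ratio of Ncl moved to -0.08, against -0.86 with them, and the difference of mean log2 values was 0.94.

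**Figure D3:**
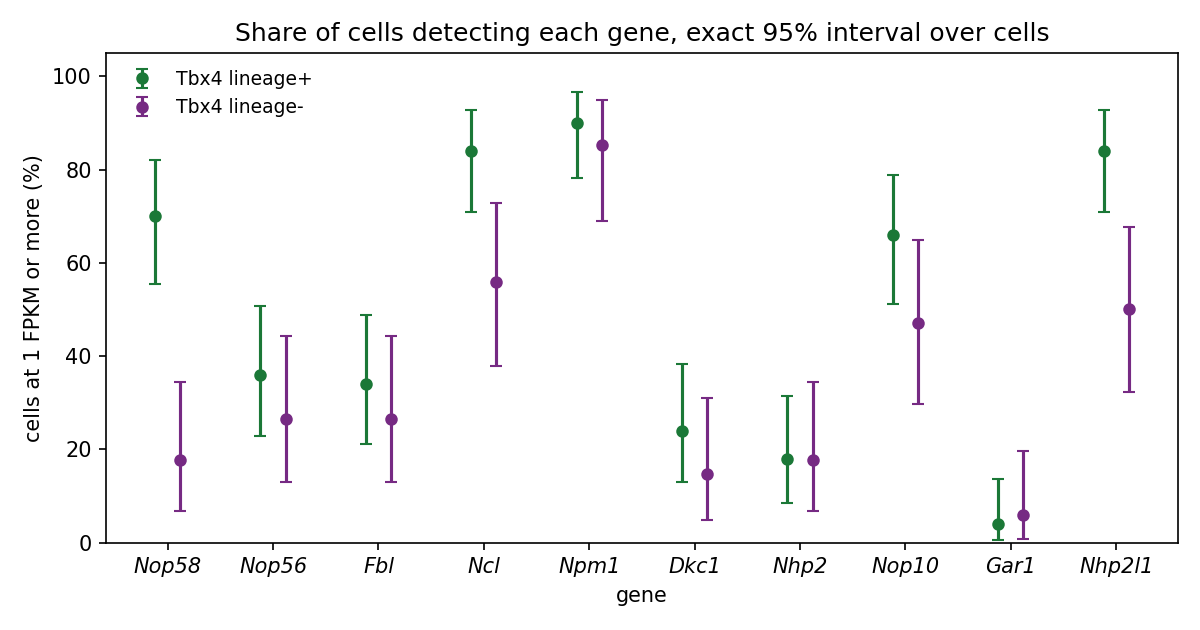
Share of cells at 1 FPKM or more for each gene, with exact 95% intervals over cells, lineage+ left of lineage-. The share is 70% in lineage+ against 17.6% in lineage- for Nop58, which was selected on its ratio, and 90% against 85.3% for Npm1, in 1 sample a group.

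Every kept cell detected at least 1 partner of Nop58. The number of partners detected ranged from 1 to 7 in lineage+ cells (median 4) and from 1 to 8 in lineage- cells (median 3). Lineage- cell 25, fibroblast-like with 2742 detected genes, detected all 9 members and was among the 5 highest lineage- cells for all 9. Lineage- cell 19, immune-like with an estimated 1190000 reads, was among the 5 highest for 5 of the 9. Leaving both out moved the log2 ratio of Nop58 to 5.70, and Nop58, Dkc1 and Nhp2 were then at least 2-fold higher in lineage+ cells.

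**Figure D4:**
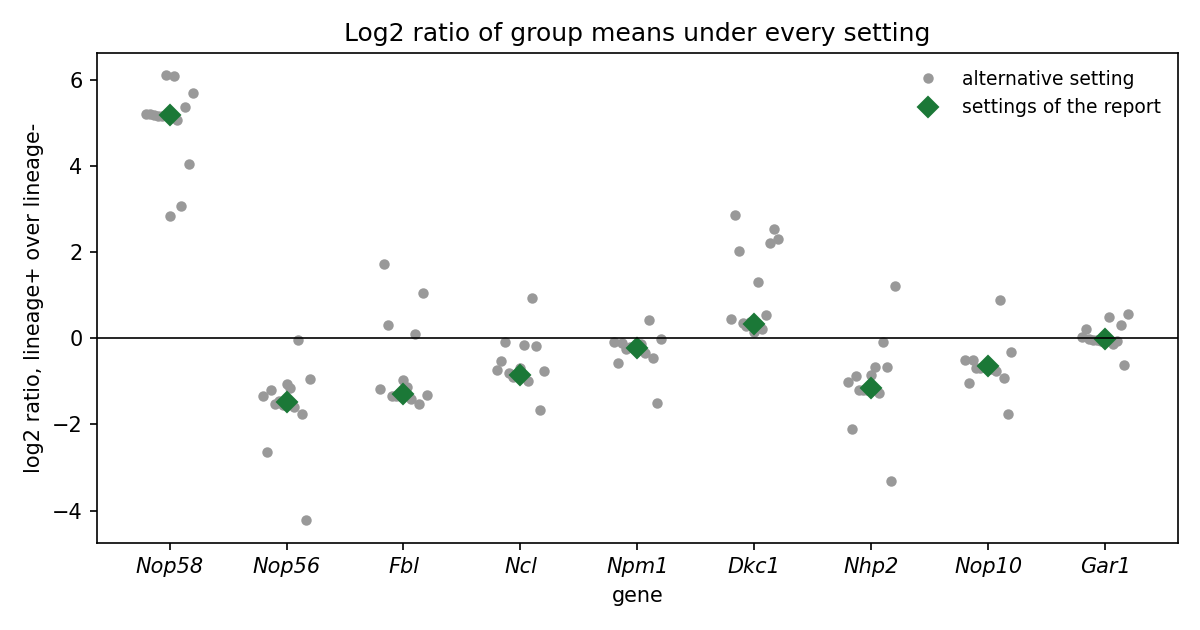
Log2 ratio of mean FPKM plus a constant, lineage+ over lineage-, for each of the 9 genes (diamond). Grey points give 13 alternative settings, which include the difference of mean log2 values in place of a ratio of means. Nop58, selected on its ratio, stays between 2.84 and 6.10. Dkc1 is above 0 and Nop56 below 0 under each setting, and the other 6 genes take both signs.

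Within the lineage+ group Nop58 did not follow its partners from cell to cell. Spearman's rho of Nop58 with the 8 partners over the 50 cells lay between -0.22 (Gar1) and 0.17 (Dkc1), with a median of -0.03, and the 28 pairs of partners had a median of 0.03 (-0.18 to 0.40). Nop58 and Nop56 were detected together in 14 cells, Nop58 without Nop56 in 21, Nop56 without Nop58 in 4 and neither in 11. Nop58 and Fbl were detected together in 12 cells and Nop58 without Fbl in 23. Over the 34 lineage- cells rho with the partners lay between 0.03 and 0.43 (median 0.32), where Nop58 was above 0 in 8 cells, and the 28 pairs of partners had a median of 0.16 (-0.16 to 0.45). Spearman's coefficient of Nop58 with the number of detected genes was 0.09 in lineage+ and 0.20 in lineage- cells, and with the estimated reads 0.13 in lineage+ and 0.16 in lineage- cells. These values describe sparse data in which cells share a library preparation and differ in depth.

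The 5 genes most like Nop58 over the 50 lineage+ cells, among 3153 genes detected in at least 25% of them, were Fosb (rho 0.53), an immediate early transcription factor gene, Glo1 (0.49), which encodes the glyoxalase of methylglyoxal detoxification, Il6st (0.47), the shared signal receptor of the IL-6 family, Mt1 (0.46), a metallothionein, and Gnb4 (0.44), a G protein beta subunit. None of the partners was among them, but Dkc1 (24% of lineage+ cells), Nhp2 (18%) and Gar1 (4%) fell below the 25% limit and were not ranked. Fosb was detected in 46 of 50 lineage+ against 20 of 34 lineage- cells, at means of 207 FPKM in lineage+ against 102 FPKM in lineage- cells (log2 ratio 1.01). The highest of so many correlations are high partly by choice, and no test was made.

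The snoRNA rows inside Nop58 could not show whether its snoRNAs went with it, because neither row varied. Snord70 and Snord11 were listed at 0 in all 54 lineage+ and all 39 lineage- libraries, also in lineage+ cell 49 with 645.2 FPKM of Nop58. Rows inside the other members' loci were similar. GENCODE places 13 snoRNAs inside 4 of the 9 members (Nop58, Nop56, Ncl and Dkc1), and 6 of them have rows. Of those 6, Snord70, Snord11 and Snord57, in intron 10 of Nop56, were listed at 0 throughout. The other 3 had a value in 1 library each. Snord110, in intron 3 of Nop56, stood at 2417 FPKM in lineage+ cell 14, where Nop56 had 3.31 FPKM. Snora75 and Snord82, from introns 12 and 5 of Ncl, stood at 2462 FPKM in lineage- cell 25 and at 632.6 FPKM in lineage- cell 8, where Ncl had 175 and 30.4 FPKM. FPKM divides by length, so each read weighs more on rows this short, and the reads behind these values were not counted. Among all 113 snoRNA rows with values, 65 were listed at 0 in every kept cell and 48 were above 0 in some. The most widely seen row was above 0 in 55 of the 84 kept cells. As background on the assay, the SMARTer kit starts cDNA from poly(A) tails, which mature intronic snoRNAs lack. Whether snoRNA levels differ between the groups was not tested.

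Bmpr2, the type 2 BMP receptor gene downstream of Nop58 on chromosome 1, was detected in 11 of 50 lineage+ against 2 of 34 lineage- cells, at means of 6.12 FPKM in lineage+ against 0.899 FPKM in lineage- cells (log2 ratio 1.91), with a median of 0 in both groups. Its ratio was below the 5.19 of Nop58.

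Genes around the snoRNP core were then described by list, counting members detected in 10% or more of either group's cells. By the same rule 29.7% of all 7587 genes were higher in lineage+ and 23.4% lower. A gene that passes that filter only through the group where it is high had to differ, so the counts and medians are descriptions. Of 11 snoRNP assembly factors with values, 7 were so detected, 3 were higher by 2-fold or more in lineage+ and 0 lower. The median log2 ratio was 0.75 for these 7 and 0.16 for all 11, among which Nufip1 was lower (-1.39). Znhit3 and Rpap3 passed the filter through lineage+ alone. The highest was Znhit3, a zinc finger assembly factor of box C/D particles, at means of 26.3 FPKM in lineage+ against 0.00909 FPKM in lineage- cells (log2 ratio 4.76), detected in 7 of 50 and 0 of 34 cells. Rpap3, a subunit of the R2TP chaperone complex, averaged 5.98 FPKM in lineage+ against 1.34 FPKM in lineage- cells (1.58), while Ruvbl2, an ATPase of that complex, had 11.3 and 10.8 FPKM in the same order (0.06). Naf1, an assembly factor of H/ACA particles, had a ratio of 0.16.

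The small subunit processome, which uses the U3 box C/D particle to process pre-ribosomal RNA, had 21 of 30 genes so detected, 7 higher and 5 lower (median 0.51, and -0.02 over all 30). Tbl3 (log2 ratio 3.28) and Utp20 (1.63) were highest and Utp3 (-2.03) and Bms1 (-1.47) lowest. Large subunit assembly genes went both ways, 5 higher and 3 lower of 15 (median -0.05), with Nop16 (2.85) and Nmd3 (2.67) highest and Eif6 (-3.26) and Rrp1 (-1.34) lowest. Of 10 RNA polymerase I genes 3 were higher and 3 lower (median -0.005), with Taf1b (1.90) and Twistnb (1.47) highest and Polr1b (-3.17) and Ttf1 (-2.67) lowest. Of 6 nucleolar chaperone and scaffold genes, which include Ncl and Npm1, 1 was higher, Nolc1 (1.35), and 1 lower, Gltscr2 (-1.14), with a median of -0.54. Gnl3 (0.33) and Tcof1 (-0.89) came next at either end. Of the genes named in these lists, Tbl3, Utp20, Nmd3 and Taf1b passed the filter on detection through lineage+ alone. Bms1 and Polr1b passed it through lineage- alone.

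Myc, a transcription factor known to drive ribosome biogenesis genes, was detected in 9 of 50 lineage+ against 4 of 34 lineage- cells, at means of 23.5 FPKM in lineage+ against 2.53 FPKM in lineage- cells (log2 ratio 2.80). Its network list had 3 of 9 genes higher and 2 lower (median -0.19), with Mlx at 3.17 beside Myc at the high end and Mxd4 (-1.82) and Mxd1 (-1.38) at the low end. Noncoding snoRNA host genes were mixed as well, 3 higher and 3 lower of 10 (median 0.14): Snhg6 averaged 20.8 FPKM in lineage+ against 1.14 FPKM in lineage- cells (3.35), and Snhg9 averaged 6.27 FPKM in lineage+ against 30.6 FPKM in lineage- cells (-2.12). Snhg12 had 28.7 FPKM in lineage+ against 8.61 FPKM in lineage- cells (1.63), and Snhg11 had 0.0904 against 15.4 FPKM in the same order (-3.91). Of 15 proliferation genes 3 were so detected, and all 3 were 2-fold or more lower by their means. By detection Tyms (50 of 50 lineage+ against 29 of 34 lineage- cells) and Pcna (21 of 50 against 13 of 34) were found in a larger share of lineage+ cells. Mcm3 passed the filter through lineage- alone, as did Mxd4, Mxd1, Snhg9 and Snhg11 in their lists. Mlx and Snhg6 passed it through lineage+ alone. Tyms averaged 10.6 FPKM in lineage+ against 24.7 FPKM in lineage- cells, Pcna averaged 50.6 and 106 FPKM in the same order, and Mcm3 was listed at 0 in all 50 lineage+ cells and detected in 4 of 34 lineage- cells.

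**Figure D5:**
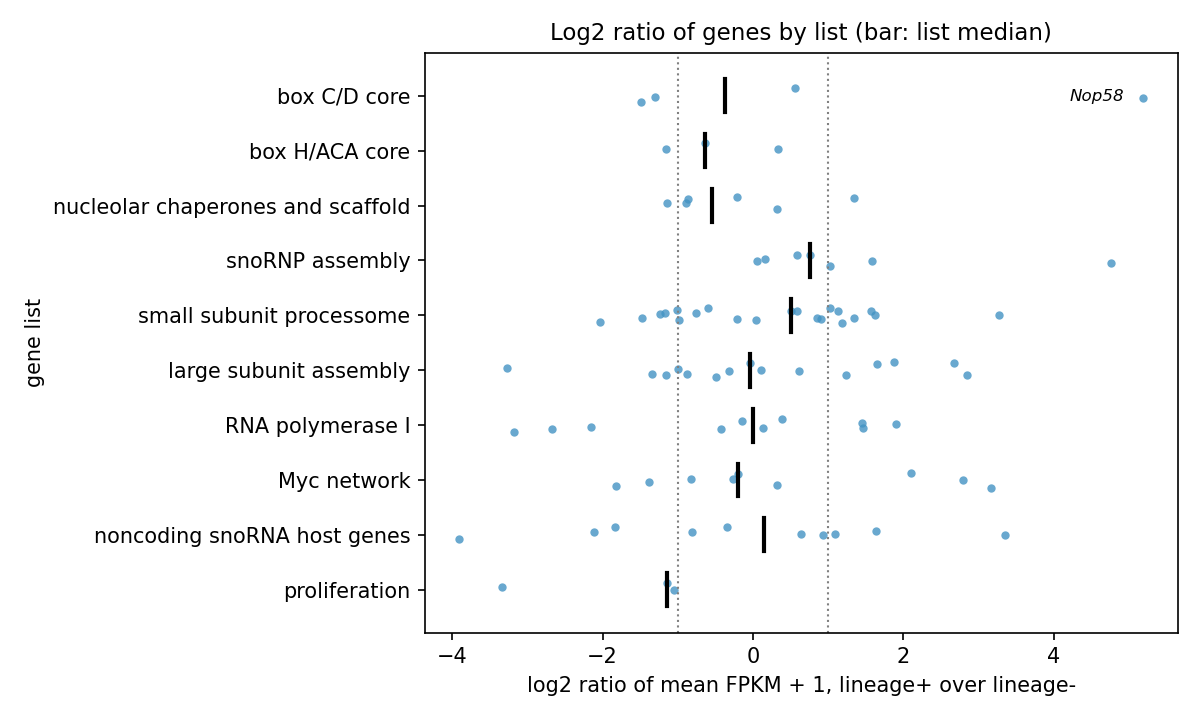
Log2 ratio of mean FPKM plus 1, lineage+ over lineage-, for each gene (points) of 10 lists that was detected in 10% or more of either group's cells, with a bar at each list's median and dotted lines at 2-fold. Nop58, selected on this ratio, is at 5.19, the rest of its box C/D list at -1.49 to 0.56, and list medians lie between -1.15 and 0.75.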

How the data were processed

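Single-cell libraries were made per the labels' protocols with a SMARTer kit on Fluidigm C1 chips and Nextera XT, and wells with doublets or debris were removed by eye; doublets were not called again. The authors deposited 1 table per group, read here as FPKM of each gene in each cell. The unit is inferred from the values, and the layout is that of a Cufflinks gene table per the file headers. Bowtie 1.1.1, RSEM 1.2.20, GRCm38 and mm9 are named in the submitters' processing notes, without their roles. Of 19782 symbols shared with GENCODE M21 (GRCm38), 99.4% overlapped the annotated gene, and file starts are printed with 1 added. A joint scaling of both tables is neither stated nor denied by these sources.

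Of 23846 rows, 1830 held no values, and 731 rows of 252 repeated symbols were left out. The level of a group is the mean over its kept cells, and log2 ratios were taken after adding 1 FPKM. With 1 sample a group no test was made. Reads per cell were estimated from the commonest low value of FPKM times length in genes with 1 transcript of more than 500 bases. The estimate and the ratios were also run on simulated cells drawn from lineage+ cells. Single reads of the kind that the estimate looks for were added to them. So the run cannot show how well the estimate works on the real cells. Cells were clustered on 2000 variable genes, without the members and listed genes, in scanpy 1.11.5 with igraph 0.11.9 (Leiden resolution 1, 10 neighbours over 15 components, seed 0). Each cluster was given the class with the highest markers, if 3 or more were detected in 30% of its cells. Genes of small RNAs with a value in single cells lead several clusters by fold. Statistics were computed in scipy 1.17.1 with pandas 2.3.3 and numpy 2.4.6 under Python 3.11.15, and plots in matplotlib 3.10.9.

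Members and lists were chosen with earlier results of these data known. Named genes are the members, rows inside their loci, up to 2 highest and 2 lowest ratios of each list among genes found in 10% or more of either group's cells, and the 5 genes most like Nop58; Gapdh and Bmpr2 were chosen after their values were seen. Some results are not reported here.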

Additional observations from a re-analysis of the deposited data

How the results depend on the processing

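Nop58 was selected on its ratio in these same cells, so the sign of that ratio is given here as a description. The log2 ratio of Nop58 was above 0 under all 13 alternatives (2.84 to 6.10). It moved by more than 1.5-fold with 0.1 FPKM (6.10) or 10 FPKM (2.84) added, with cells scaled to a total of 1000000 (6.08), with the difference of mean log2 values (3.06) and over fibroblast-like and mesothelial-like cells alone (4.05). With 10 FPKM as the limit, 48% of lineage+ against 2.94% of lineage- cells detected Nop58. The partners' median of -0.75 moved to -0.10 with each group's highest cell left out, to 0.27 with the difference of mean log2 values and to -1.58 over fibroblast-like and mesothelial-like cells. The number of members at least 2-fold higher, 1 with the settings of the report, was 3 among cells with at least 2000 genes (Nop58, Fbl, Dkc1), 2 with each group's highest cell left out, with a common total and over cells with an estimated 2000000 reads (Nop58 and Dkc1), 3 over fibroblast-like and mesothelial-like cells (Nop58, Fbl, Dkc1) and 3 without lineage- cells 19 and 25 (Nop58, Dkc1, Nhp2). Fbl, -1.30, turned to 1.73 among cells with at least 2000 genes, 0.32 with each group's highest cell left out, 0.10 with the difference of mean log2 values and 1.05 over fibroblast-like and mesothelial-like cells. Nhp2, -1.15, turned to 1.21 without lineage- cells 19 and 25. Where single cells carry a mean, leaving them out shows it; for other settings the cause was not tested. Of 104 ratios of partners under alternatives 77 stayed within 1.5-fold and 22 moved. The other 5, of Fbl and Nhp2, turned to the other sign from a 2-fold or larger difference. Smaller ratios that changed sign are not among these 5. With the difference of mean log2 values Ncl (0.94), Npm1 (0.43) and Nop10 (0.90) changed sign and count as moved. Gar1, at -0.03, changed sign within 1.5-fold. Of 144 shares 130 stayed within the interval, and of 20 list medians 17 stayed. The other 3 moved. Box C/D (-0.37, changing sign to 0.83) and the Myc network (-0.19, changing sign to 0.96) did so over cells with at least 2000 genes. The box C/D list has 4 genes and includes Nop58, selected on this ratio, so both of its medians depend in part on that selection. SnoRNP assembly (0.75) moved to 0.16 with no filter on detection. Centring on the median of 998 widely detected genes shifts every log2 ratio by 0.12. The settings on estimated reads, on classes and on cells 19 and 25 were chosen after seeing the data. Depth may limit Nop58 in the 4 lineage- cells where 1 FPKM stands for under 1 read on an mRNA of 1713 bases. No paired analysis was possible because the shared numbers only count wells and the results come from no test.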
